A study of Mus musculus with 18 samples.

Results

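The genes described here were the MHC class II and costimulatory genes H2-Aa, H2-Ab1, H2-Eb1, Cd74, H2-DMa, H2-DMb1, Ciita, Cd80, Cd86 and Cd40. They were chosen by name, with earlier results of these data known, and are 10 of the 55414 gene identifiers counted in bulk RNA-seq libraries of purified mouse brain microglia. Expression was compared between female KO (n = 4), female WT (n = 4), male KO (n = 5) and male WT (n = 5) libraries, where KO and WT refer to Chd8, a chromatin remodeler gene. The titles of all 18 libraries carry the prefix HX, which the labels do not explain. The sources used here give no deleted allele, Cre driver, strain, age or method of purification. The question was how these genes differed between genotypes and sexes, and whether their levels followed the content of monocyte or border-associated macrophage transcripts in the libraries. All 10 genes passed the filter on low counts that left 10948 genes for testing. Nothing in the labels says that replicates came from separate animals, so p-values measure the spread between these libraries, which may be technical.

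MHC class II molecules are pairs of an alpha and a beta chain that display peptides from ingested proteins to CD4+ T cells. The invariant chain, encoded by Cd74, guards the peptide groove during transport, and the H2-DM molecule exchanges the last invariant chain fragment for a peptide. Transcription of these genes depends on the coactivator CIITA, which is recruited by factors bound to conserved promoter elements called the X and Y boxes. CD80 and CD86 give the second signal through CD28 on the T cell, and CD40 receives a signal from activated T cells. Resting microglia express class II at low levels, while border-associated macrophages of the meninges and vessels, monocyte-derived cells, dendritic cells and B cells express it more strongly.

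Promoter sequences are shown because the alpha and beta chain genes moved together, and the Y box and X box are the elements they are known to share. RefSeq promoters of GRCm38.p6, spanning 250 bases before to 50 bases after a start site, were searched on both strands. The Y box core TGATTGG was present in 3 of the 5 members with a promoter window, H2-Aa, H2-Eb1 and H2-DMb1, against 7.82% of 32851 promoters of the same length. The X box core, AGNAAC followed directly by NNATG, was present in 2 of these 5 members, H2-Eb1 and H2-DMb1, against 0.895% of all promoters. Neither core was found in the windows of H2-DMa and Cd80. Promoters of H2-Ab1, Cd74, Ciita, Cd86 and Cd40 were not used here. Each line gives 30 bases, 5′ to 3′ on the strand of the gene, with the matched core in capitals. The Y box cores of H2-Aa (chr17:34287855-34287884), H2-Eb1 (chr17:34305795-34305824) and H2-DMb1 (chr17:34153117-34153146) began 50, 61 and 63 bases before the start site. The X box cores of H2-Eb1 (chr17:34305766-34305795) and H2-DMb1 (chr17:34153087-34153116) began 92 and 95 bases before it. The X and Y cores do not overlap. H2-Eb1, with both cores, H2-Aa, with the Y box core only, and H2-DMa, with neither, were lower in female KO. H2-DMb1, with both cores, and Cd80, with neither, were not called between genotypes in either sex. The search used fixed letters, so a variant of a core would be missed. Any part of these elements in the differences was not tested. A match is a description of the letters, not of binding.
H2-Aa, Y box: agagaattttcTGATTGGttctggcgagtt
H2-Eb1, Y box: tcctttgatgcTGATTGGctcccagcactg
H2-DMb1, Y box: gattcactcagTGATTGGtctgacctgcct
H2-Eb1, X box: tctctaactAGCAACTGATGatgctggact
H2-DMb1, X box: ggtttacctAGTAACTGATGatgctaggct

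The class II genes among the members lie close together in the MHC of mouse chromosome 17 (GRCm38). H2-DMa is at chr17:34119541-34139101, H2-DMb1 at chr17:34153072-34160230, H2-Ab1 at chr17:34257689-34269419, H2-Eb1 at chr17:34305867-34316674, all on the plus strand, and H2-Aa at chr17:34282744-34287823 on the minus strand. Cd74 is at chr18:60803848-60812652 (plus) and Ciita at chr16:10480059-10528418 (plus). Cd80 is at chr16:38455561-38496335 (plus), Cd86 at chr16:36603869-36666081 (minus) and Cd40 at chr2:165055627-165072948 (plus). H2-DMb1 has a near-identical neighbour, H2-DMb2, so reads may be split between both. The annotated span of H2-DMa overlaps Brd2 on the other strand, that of Ciita overlaps Dexi on the other strand, and that of H2-Eb1 overlaps the antisense gene Gm20513. The strand setting of the counting is not stated in the labels, so reads of overlapping genes could not be told apart.

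Library depth was 435838 to 9149144 UMI-corrected counts, and both the shallowest libraries, KO replicate 33 and WT replicate 34, were female. The mean number of reads per UMI fell into 3 ranges, which the labels do not mention. A low range of 1.79 to 1.89 held 1 female KO, 0 female WT, 4 male KO and 3 male WT libraries. A middle range of 2.94 to 3.12 held 2 female KO, 1 female WT, 1 male KO and 2 male WT libraries, and a high range of 5.52 to 7.26 held 1 female KO and 3 female WT libraries. The microglial marker Tmem119 was abundant in every library, at 3279 to 5566 CPM (UMI counts scaled to library size). The 11 microglial markers summed to 30738 to 35722 CPM in female KO against 26245 to 29602 CPM in female WT, without overlap. In males they summed to 27235 to 31140 CPM in KO against 30583 to 34458 CPM in WT, with overlap. Of these 11, 1 was lower in female KO and 2 in male KO, and 0 were higher (edgeR adjusted p under 0.05). Chd8 was at 116 to 139 CPM in female KO against 132 to 186 CPM in female WT, and at 96.4 to 116 CPM in male KO against 135 to 167 CPM in male WT (log2 fold change -0.44 ± 0.12 in females, edgeR adjusted p = 0.0547, and -0.54 ± 0.10 in males, edgeR adjusted p = 0.00171). A 3' tag need not lie in the deleted part, so this does not check the labels. Male KO replicates 6, 9 and 17 stood apart in oligodendrocyte lineage transcripts, which summed to 571 to 832 CPM there, against 101 to 288 CPM in the other males.

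In female microglia the class II chains were lower in KO than in WT, and in male microglia H2-Aa was higher in KO. Of the 10 genes, 5 fell in female KO (against 1.83% of all 10948 genes lower and 2.68% called in either direction), and 0 rose. These were Cd74, H2-Eb1, H2-Ab1, H2-Aa and H2-DMa. The median log2 fold change of the 10 genes was -0.55 in females, against 0.01 over all genes. In males 1 of 10 rose, H2-Aa, against 3.37% of all genes higher and 6.24% called, and 0 fell. The male median was 0.29, against -0.01 over all genes. Markers of other brain cells moved in the same male libraries: 3 of 4 tested astrocyte markers, 4 of 4 neuron markers and 3 of 5 oligodendrocyte lineage markers rose in KO, and 0 fell. The 8 astrocyte markers summed to 253 to 492 CPM in male KO against 131 to 180 CPM in male WT, and the 8 neuron markers to 44.6 to 195 CPM in male KO against 11.1 to 24.4 CPM in male WT, both without overlap. The part of these cells in the H2-Aa difference was not tested, beyond the fit without 3 male KO libraries. Genes were called by edgeR's quasi-likelihood test at a Benjamini-Hochberg adjusted p under 0.05 over all genes, and ± after a log2 fold change is its SE. In bulk libraries, fewer cells of a type and less RNA per cell cannot be told apart.

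**Figure D1:**
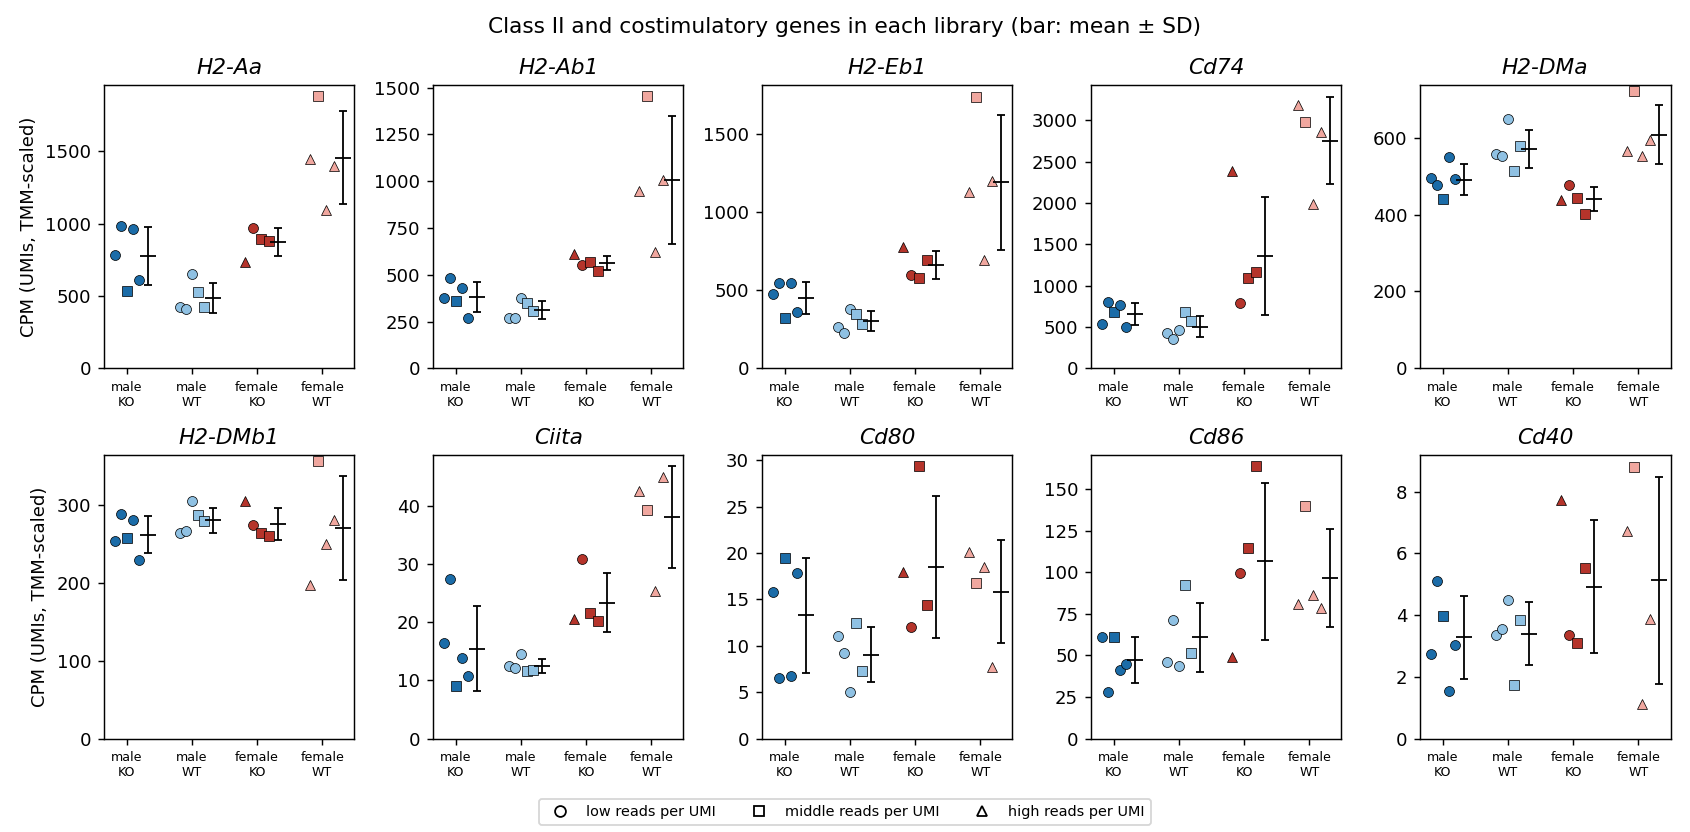
CPM (TMM-scaled UMIs, linear axes from 0) of the 10 genes in each of the 18 libraries, grouped as male KO, male WT, female KO and female WT, with the mean ± SD of each group; the marker shape gives the range of reads per UMI. For H2-Aa the female KO libraries sit between 738 and 973, all below the female WT libraries at 1098 to 1884, while the male KO libraries at 538 to 983 overlap the male WT libraries at 412 to 650.

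The alpha chain gene H2-Aa was at 738, 973, 894 and 881 CPM in female KO replicates 33, 16, 1 and 7, against 1446, 1884, 1098 and 1400 CPM in female WT replicates 34, 39, 31 and 30. Every female KO library lay below every female WT library, as was also so for H2-Ab1 and H2-DMa (3 of 10 genes, against 2.84% of all genes), and the log2 fold change was -0.74 ± 0.20 (adjusted p = 0.0444, edgeR). In males H2-Aa was at 787, 983, 538, 962 and 609 CPM in KO replicates 36, 6, 9, 17 and 40, against 424, 412, 650, 530 and 423 CPM in WT replicates 13, 37, 10, 11 and 14. The 2 ranges overlapped, since male KO replicates 9 and 40 lay below male WT replicate 10. In males the groups overlapped for all 10 genes, while in 5.27% of all genes every KO library lay above every WT library. The male log2 fold change was 0.67 ± 0.17 (adjusted p = 0.0201, edgeR). H2-Aa was therefore called in both sexes, in opposite directions, but each call was lost when certain single libraries were left out.

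H2-Ab1 encodes the beta chain that pairs with the product of H2-Aa. It was at 610, 552, 570 and 522 CPM in female KO, against 947, 1454, 624 and 1006 CPM in female WT, in the same order of replicates. The groups did not overlap, although WT replicate 31 at 624 CPM lay close to the highest KO library at 610 CPM, and the log2 fold change was -0.84 ± 0.20 (adjusted p = 0.0281, edgeR). In males H2-Ab1 was at 377, 481, 360.5, 428 and 267 CPM in KO, against 267, 267, 377, 350 and 304 CPM in WT, which overlapped, with a log2 fold change of 0.29 ± 0.18 that did not pass (adjusted p = 0.437, edgeR).

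H2-Eb1 encodes the beta chain of the I-E class II molecule. Its levels were 775, 597, 577 and 691 CPM in female KO, against 1128, 1738, 691 and 1201 CPM in female WT. WT replicate 31 was level with KO replicate 7 and below KO replicate 33, so the groups overlapped, and the log2 fold change was -0.86 ± 0.22 (adjusted p = 0.0411, edgeR). In males H2-Eb1 was at 476, 547, 322, 545 and 361 CPM in KO, against 266, 228, 382, 351 and 286 CPM in WT. Male KO replicates 9 and 40 lay within the WT range, and the log2 fold change of 0.57 ± 0.20 did not pass (adjusted p = 0.0987, edgeR).

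Cd74 had the widest spread of the chain genes among female KO libraries. It was at 2393, 785, 1089 and 1161 CPM in female KO, against 3182, 2984, 1988 and 2863 CPM in female WT. KO replicate 33 stood well above the other KO libraries and above WT replicate 31, so the groups overlapped, and the log2 fold change was -1.03 ± 0.26 (adjusted p = 0.0372, edgeR). In males Cd74 was at 538, 804, 686, 762 and 504 CPM in KO, against 425, 357, 470, 679 and 578 CPM in WT. These overlapped, and the log2 fold change of 0.39 ± 0.23 did not pass (adjusted p = 0.419, edgeR).

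Within ranges of reads per UMI, the female comparison rested on few libraries. In the middle range H2-Aa was at 894 and 881 CPM in the 2 female KO libraries, against 1884 CPM in the 1 female WT library, and Cd74 was at 1089 and 1161 CPM in KO, against 2984 CPM in WT. In the high range the 1 female KO library had 738 CPM of H2-Aa and 2393 CPM of Cd74, against 1098 to 1446 and 1988 to 3182 CPM in the 3 female WT libraries. H2-Aa was thus lower in female KO within both ranges, while Cd74 overlapped in the high range. With the range as a covariate, H2-Aa (-0.98 ± 0.20, adjusted p = 0.0189, edgeR) and H2-Ab1 (-0.97 ± 0.21, adjusted p = 0.0293, edgeR) remained called in females, and H2-Eb1 (-0.96 ± 0.24, adjusted p = 0.056, edgeR) and Cd74 (-0.80 ± 0.22, adjusted p = 0.0801, edgeR) did not pass. In males, with the 7 libraries of the low range and the 1 female library there, the log2 fold changes were 0.75 ± 0.18 for H2-Aa (adjusted p = 0.0211, edgeR), 0.72 ± 0.17 for H2-Eb1 (adjusted p = 0.0217, edgeR) and 0.64 ± 0.16 for Cd74 (adjusted p = 0.0271, edgeR). In the middle range the 1 male KO library had 538 CPM of H2-Aa, against 530 and 423 CPM in the 2 male WT libraries.

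The female calls lay close to the threshold. In a fit of the 8 female libraries alone 0 of the 10 genes were called, with log2 fold changes of -0.71 ± 0.19 for H2-Aa (adjusted p = 0.203, edgeR) and -0.99 ± 0.31 for Cd74 (adjusted p = 0.283, edgeR). Leaving out female KO replicate 16, 1 or 7, or female WT replicate 39 or 30, also left 0 calls in females. Of the 18 fits that left out 1 library, the female call was lost in 14 for H2-Aa and 13 for H2-Eb1. It was lost in 6 for Cd74 and in 5 each for H2-Ab1 and H2-DMa. The log2 fold changes over all 18 such fits stayed negative, from -0.85 to -0.58 for H2-Aa and from -1.44 to -0.83 for Cd74. The male call of H2-Aa was lost without male KO replicate 6 or 17, or male WT replicate 13, 37 or 14 (log2 fold change 0.57 to 0.63, adjusted p = 0.0602 to 0.0776, edgeR). Without male KO replicates 6, 9 and 17, which stood apart in oligodendrocyte lineage transcripts, H2-Aa was at 0.53 ± 0.20 in males (adjusted p = 0.255, edgeR). In these 3 libraries H2-Aa was at 983, 538 and 962 CPM, so they held both the highest and the lowest male KO values.

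Of the 2 peptide-loading genes, H2-DMa fell in female KO and H2-DMb1 did not pass the test. H2-DMa encodes the alpha chain of H2-DM, and was at 437, 478, 442 and 401 CPM in female KO, against 564, 721, 552 and 593 CPM in female WT, without overlap. The log2 fold change was -0.47 ± 0.12 (adjusted p = 0.0332, edgeR). In males it was at 495, 477, 441, 550 and 493 CPM in KO, against 556, 553, 649, 515 and 579 CPM in WT, with overlap and a log2 fold change of -0.21 ± 0.10 that did not pass (adjusted p = 0.26, edgeR). Averaged over both sexes, H2-DMa fell by 0.34 ± 0.08 on the log2 scale (adjusted p = 0.0064, edgeR), the 1 call among the 10 genes, against 9.5% of all genes called and 5.13% lower. H2-DMa was thus called lower in KO in females and in the average of the sexes, but not in males alone. In the average, 1 call among the 10 genes was near the share of all genes called. H2-DMb1, the beta chain of H2-DM, ranged from 261 to 306 CPM in female KO against 197 to 357 CPM in female WT, and from 230 to 289 CPM in male KO against 265 to 305 CPM in male WT. All 4 ranges overlapped, and its log2 fold changes were 0.00 ± 0.14 in females and -0.10 ± 0.12 in males, neither of which passed.

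Ciita, the class II transactivator, was counted at low depth, with 8 to 110 UMIs per library. It was at 20.6, 30.8, 21.6 and 20.3 CPM in female KO, against 42.5, 39.2, 25.3 and 44.9 CPM in female WT. KO replicate 16 lay above WT replicate 31, and the log2 fold change of -0.63 ± 0.28 did not pass (adjusted p = 0.268, edgeR). In males Ciita was at 16.5, 27.3, 8.96, 13.8 and 10.7 CPM in KO, against 11.6 to 14.5 CPM in the 5 WT libraries (log2 fold change 0.30 ± 0.24, adjusted p = 0.595, edgeR). The 5 male KO libraries spanned the whole WT range on both sides.

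None of the 3 costimulatory genes passed the test of KO against WT in either sex (edgeR; 0 at an unadjusted p under 0.05 and 0 by DESeq2 as well). Cd86 was at 48.9, 99.3, 114 and 164 CPM in female KO, against 80.6, 140, 86.5 and 78.2 CPM in female WT (log2 fold change 0.22 ± 0.29). In males it was at 61.0, 28.1, 60.7, 41.1 and 44.6 CPM in KO, against 45.7, 71.2, 43.5, 92.1 and 51.3 CPM in WT (log2 fold change -0.38 ± 0.25). The groups overlapped in both sexes. Cd80 was at 12.1 to 29.4 CPM in female KO against 7.74 to 20.1 CPM in female WT, and at 6.56 to 19.4 CPM in male KO against 5.01 to 12.5 CPM in male WT, with 7 to 176 UMIs per library. Cd40 was at the edge of detection, with 2 to 30 UMIs per library and group means of 3.28 to 5.13 CPM. For Cd80 and Cd40 the SE of the log2 fold change was 0.32 to 0.52, so a difference of the size seen in the chains was not detectable at this depth.

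**Figure D2:**
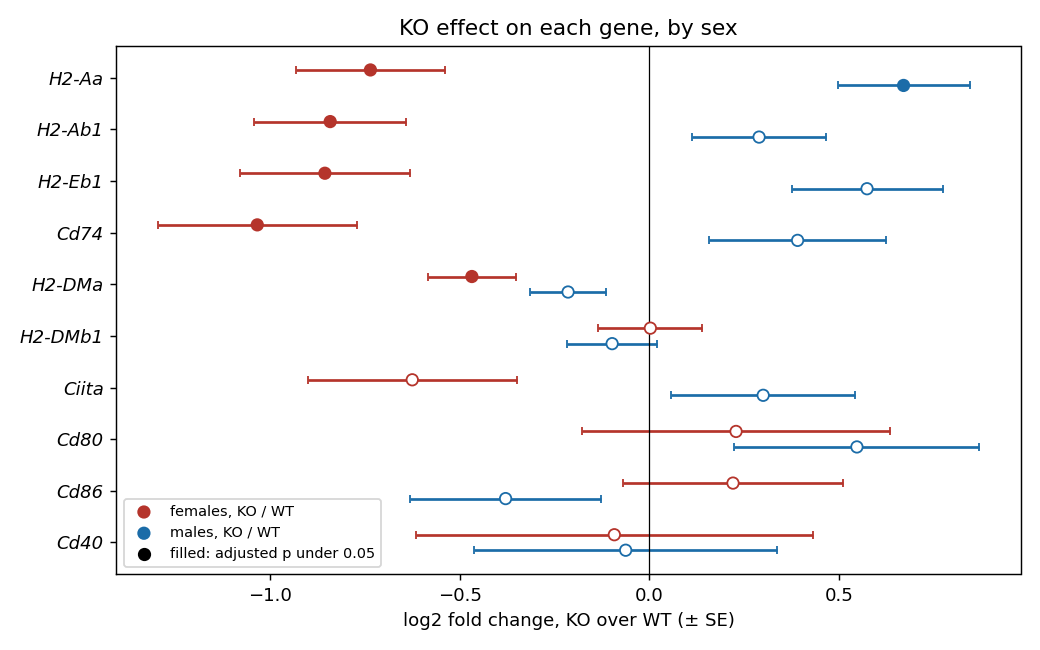
Log2 fold change, KO over WT, of the 10 genes in females (upper point of each row) and in males (lower point), with bars of ± SE and filled points at an adjusted p under 0.05. The 4 chain genes lie between -1.03 and -0.74 in females and between 0.29 and 0.67 in males, while H2-DMa lies below 0 in both sexes.

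The KO effect itself differed between the sexes for H2-Aa and H2-Eb1. Their female effect minus their male effect was -1.41 ± 0.26 (adjusted p = 0.0205, edgeR) and -1.43 ± 0.30 (adjusted p = 0.0469, edgeR). These were 2 of 10 genes, against 0.237% of all genes called and 0.192% called with a negative difference. Cd74 at -1.43 ± 0.35 (adjusted p = 0.103, edgeR), H2-Ab1 at -1.13 ± 0.27 (adjusted p = 0.0847, edgeR) and Ciita at -0.93 ± 0.37 (adjusted p = 0.452, edgeR) did not pass. DESeq2 called 4 of the 10 genes in this contrast. The call of H2-Eb1 was lost in 13 of the 18 fits that left out 1 library and that of H2-Aa in 7, with adjusted p-values of 0.0536 to 0.112 there. The differences stayed between -1.48 and -1.18 in those fits.

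For the chain genes the log2 fold changes between the sexes in WT were larger in size than those between genotypes. In WT libraries 5 of the 10 genes were lower in males, against 17.3% of all genes called and 10.3% lower, and 0 were higher. The median log2 fold change of the 10 genes was -1.16, against -0.01 over all genes. Cd74 averaged 502 ± 128 CPM in male WT and 2754 ± 527 CPM in female WT (SD, n = 5 and 4), with a log2 fold change of -2.45 ± 0.25 (adjusted p = 2.09e-06, edgeR). H2-Eb1 averaged 303 ± 63.0 CPM in male WT and 1190 ± 429 CPM in female WT (log2 fold change -1.98 ± 0.21, adjusted p = 4.1e-06, edgeR). H2-Ab1 was at -1.69 ± 0.19, H2-Aa at -1.58 ± 0.19 and Ciita at -1.58 ± 0.27, all called. In each of these 5 genes every male WT library lay below every female WT library, a pattern found in 9.41% of all genes tested. Cd86 at -0.67 ± 0.28 did not pass (adjusted p = 0.0996, edgeR). Markers of other myeloid cells were lower in male WT as well: 9 of 10 tested monocyte markers (median log2 fold change -2.78), 12 of 16 border-associated macrophage markers (-2.10) and 11 of 11 neutrophil markers (-3.45) fell, and 0 rose. In male against female KO these counts were 5 of 10, 1 of 16 and 5 of 11 lower, and 0 higher, while 2 of 4 astrocyte, 1 of 4 neuron and 3 of 5 oligodendrocyte lineage markers were higher in male KO.

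In KO libraries Cd86 and Cd74 were lower in males and the other chain genes did not pass. These were 2 of the 10 genes, against 7.1% of all genes called and 4.27% lower, and the median log2 fold change was -0.50, against -0.02 over all genes. Cd86 averaged 47.1 ± 14.0 CPM in male KO and 107 ± 47.3 CPM in female KO (SD, n = 5 and 4), with a log2 fold change of -1.27 ± 0.27 (adjusted p = 0.00704, edgeR). Cd74 averaged 659 ± 133 CPM in male KO and 1357 ± 710 CPM in female KO, with a log2 fold change of -1.03 ± 0.25 (adjusted p = 0.0154, edgeR). Without female KO replicate 33, at 2393 CPM, the log2 fold change of Cd74 was -0.62 ± 0.20 and was not called (adjusted p = 0.0659, edgeR), and without female KO replicate 7 that of Cd86 was not called (adjusted p = 0.0664, edgeR). The ranges of Cd74 overlapped, since female KO replicate 16 at 785 CPM lay below male KO replicate 6 at 804 CPM. H2-Ab1 and H2-Eb1 did not overlap, with every male KO library below every female KO library, as in 4.53% of all genes, but their log2 fold changes of -0.56 ± 0.19 and -0.55 ± 0.21 did not pass (adjusted p = 0.0726 and 0.119, edgeR). By group mean, H2-Aa, H2-Ab1, H2-Eb1, Cd74 and Ciita were each ordered male WT, male KO, female KO, female WT from low to high. Neighbouring groups in this order overlapped in range, except female KO and female WT for H2-Aa and H2-Ab1, and male KO and female KO for H2-Ab1 and H2-Eb1.

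The reads per UMI differed between the sexes as well, with 0 female WT libraries in the low range. With the range as a covariate, Cd74 was at -1.87 ± 0.25 in male against female WT (adjusted p = 0.000221, edgeR) and H2-Aa at -1.98 ± 0.22 (adjusted p = 4.67e-05, edgeR). In male against female KO, Cd74 then fell short of the threshold at -0.54 ± 0.23 (adjusted p = 0.223, edgeR), and Cd86 remained called at -1.16 ± 0.22 (adjusted p = 0.00679, edgeR). Within the middle range Cd74 was at 679 and 578 CPM in the 2 male WT libraries, against 2984 CPM in the 1 female WT library.

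Some monocyte markers were lower in female KO, where the chains fell, and some border-associated macrophage markers were higher in male KO, where H2-Aa rose. Neither list did so in both sexes. Monocyte markers had a median log2 fold change of -0.12 in males and border-associated macrophage markers -0.11 in females, with 0 called in each. The 13 monocyte markers, led by S100a6, S100a4, Napsa and Chil3, summed to 163 to 314 CPM in female KO against 294 to 923 CPM in female WT. In males they summed to 66.7 to 137 CPM in KO against 76.6 to 108 CPM in WT. The 4 strict monocyte markers were a minor part of that sum. They summed to 18.4 to 61.6 CPM in female KO against 53.8 to 203 CPM in female WT. In males they summed to 10.5 to 19.3 CPM in KO against 15.6 to 22.3 CPM in WT. Of 10 tested monocyte markers, 5 fell in female KO and 0 rose, and 0 changed in males (edgeR; 0 at an unadjusted p under 0.05 and 0 by DESeq2). The monocyte chemokine receptor gene Ccr2 was at 6.88 to 20.2 CPM in female KO, against 9.78 to 59.1 CPM in female WT, while Gpr141 had 1 UMI over all libraries. The 18 border-associated macrophage markers summed to 1244 to 1458 CPM in female KO against 1279 to 1694 CPM in female WT, and to 963 to 1302 CPM in male KO against 893 to 1121 CPM in male WT. Stab1, a scavenger receptor gene, made up 66.4 to 92.9% of that sum and was at 715 to 961 CPM in male KO, against 792 to 1019 CPM in male WT. Without Stab1 the remaining 17 markers summed to 234 to 446 CPM in female KO against 255 to 495 CPM in female WT, and to 248 to 388 CPM in male KO against 73.9 to 115 CPM in male WT. This sum left out Stab1 after its share had been seen.

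The strict border-associated macrophage markers, among them the carbonyl reductase gene Cbr2 and the mannose receptor gene Mrc1, showed the same male contrast. Cbr2 was at 34.2 to 50.6 CPM in male KO, against 4.88 to 10.7 CPM in male WT, without overlap. In males 10 of 16 tested border-associated macrophage markers rose in KO and 0 fell, and in females 0 rose and 0 fell (edgeR; 2 at an unadjusted p under 0.05 and 0 by DESeq2). Neutrophil markers, led by S100a8 and S100a9, also moved in females, at 1009 to 5328 CPM in KO against 2182 to 15949 CPM in WT, and 7 of 11 tested fell. Their part in the class II difference was not tested. The 9 B-cell markers summed to 1030 to 1244 CPM in male KO against 891 to 1065 CPM in male WT. In females they summed to 799 to 1016 CPM in KO against 723 to 868 CPM in WT. Without the immunoglobulin heavy chain genes Ighm and Ighd, left out after their levels had been seen, the sum was 0 to 8.73 CPM per library. Cd79a was at 2 to 3 UMIs per group. Of 2 tested B-cell markers, 0 were called between KO and WT in either sex (edgeR; 0 by DESeq2), and 1 was higher in male than in female WT. The 13 dendritic cell markers summed to 258 to 277 CPM in male KO against 172 to 202 CPM in male WT, without overlap, and to 184 to 233 CPM in female KO against 168 to 225 CPM in female WT. Without Batf3 and Il4i1, which were left out after their levels had been seen, the other 11 summed to 38.1 to 55.8 CPM in male KO against 26.6 to 42.9 CPM in male WT, with overlap. Of 6 tested dendritic cell markers, 1 rose in male KO and 0 fell, and in females 0 changed (edgeR; 1 at an unadjusted p under 0.05 and 0 by DESeq2). Of the defining markers, Xcr1 had 1 UMI over all libraries and Clec9a 2 to 7 UMIs per group. The part of these cells was not tested.

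**Figure D3:**
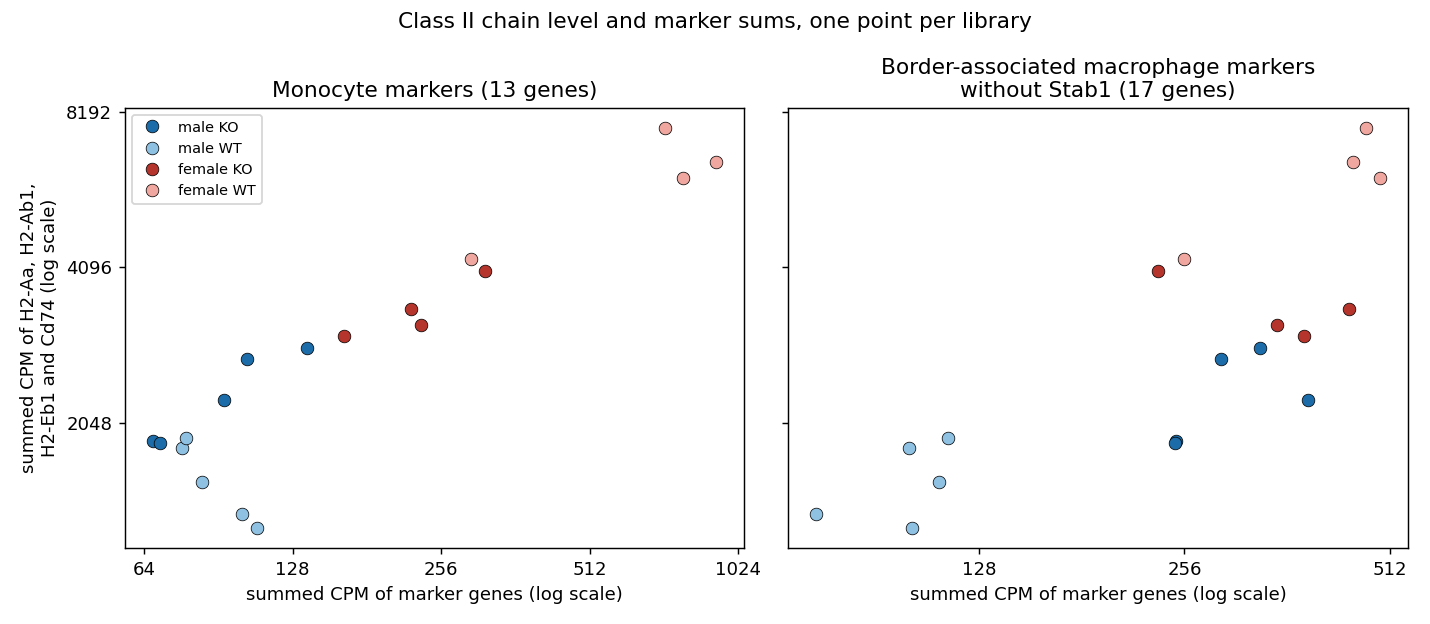
Summed CPM of H2-Aa, H2-Ab1, H2-Eb1 and Cd74 (vertical, log scale) against the summed CPM of the 13 monocyte markers (left) and of the 17 border-associated macrophage markers without Stab1 (right, both log scales), 1 point per library. Female WT replicate 31, with the lowest monocyte sum of its group at 294 CPM, has the lowest chain sum of its group at 4252 CPM, while the male KO and male WT libraries overlap in monocyte sum and separate without overlap in the macrophage sum.

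Among female libraries the class II chains and the monocyte sum ran together in part. Female WT replicate 31 had a monocyte sum of 294 CPM, against 727 to 923 CPM in the other female WT libraries. It was also the lowest female WT library for H2-Aa, H2-Ab1, H2-Eb1, Cd74 and Ciita. Female KO replicate 33 had the highest monocyte sum of its group, 314 CPM, and the highest Cd74, H2-Ab1 and H2-Eb1, but the lowest H2-Aa at 738 CPM. In male KO the order of the libraries by monocyte sum, from 137 CPM in replicate 6 over 103 in 17, 92.8 in 36 and 69.0 in 40 to 66.7 in 9, was also their order in H2-Aa and H2-Eb1. In male WT it was not: replicate 37 had the highest monocyte sum, 108 CPM, and the lowest H2-Aa, 412 CPM, and replicate 10 had the lowest sum, 76.6 CPM, and the highest H2-Aa, 650 CPM.

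Within groups, the slope of a gene on the log2 monocyte sum was fitted across all 18 libraries with 1 mean per group. It was 0.54 ± 0.19 log2 units per doubling for Ciita, 0.50 ± 0.18 for Cd74, 0.47 ± 0.17 for H2-Eb1, 0.39 ± 0.15 for H2-Ab1 and 0.25 ± 0.16 for H2-Aa. The slope was 0.86 ± 0.39 for Cd40, -0.22 ± 0.25 for Cd86, -0.43 ± 0.32 for Cd80, 0.04 ± 0.09 for H2-DMa and 0.08 ± 0.11 for H2-DMb1. None of the 10 slopes passed (edgeR adjusted p = 0.299 to 0.955; 5 of 10 at an unadjusted p under 0.05), against 55 of all 10948 genes, or 0.502%. That count was 4 without female WT replicate 31. On the border-associated macrophage sum 0 of 10 members and 0.0% of all genes passed, and 1 member, Ciita, had an unadjusted p under 0.05 (slope 1.53 ± 0.62, edgeR adjusted p = 1). On that sum without Stab1 again 0 passed, and the slopes were 0.53 ± 0.19 for H2-Aa, 0.52 ± 0.23 for H2-Eb1, 0.48 ± 0.21 for H2-Ab1, 0.71 ± 0.29 for Ciita, 0.65 ± 0.30 for Cd86 and -0.12 ± 0.30 for Cd74. These slopes depended on single libraries and on the marker list. On the monocyte sum, leaving out 1 library gave 0.12 to 0.32 for H2-Aa and 0.16 to 0.45 for H2-Ab1, both lowest without female WT replicate 31, and 0.33 to 0.60 for Cd74, lowest without female KO replicate 33. With the 4 strict monocyte markers the slope of Cd74 was -0.15, and in males alone it was 0.08, against 0.70 in females alone. On the macrophage sum without Stab1 the slope of Cd74 was 0.44 in males alone and -0.45 in females alone. The difference between slopes was not tested.

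As deviations from group means over 18 libraries, Cd74 correlated with the monocyte sum at r = 0.53 (permutation p = 0.0218) and rho = 0.47 (permutation p = 0.0606), and at r = 0.41 without the 2 libraries farthest from the median sum. Its adjusted p over the 20 relations of 10 genes with 2 sums was 0.33, the lowest of the family. The correlations of H2-Ab1 (r = 0.56, permutation p = 0.107; rho = 0.46, permutation p = 0.0883) and H2-Eb1 (r = 0.59, permutation p = 0.066; rho = 0.46, permutation p = 0.0915) came to r = -0.02 and 0.13 without those 2 libraries, so they rested on them. That of Ciita (r = 0.58, permutation p = 0.0364; rho = 0.45, permutation p = 0.101) came to 0.02. Within the 8 female libraries Cd74 and the monocyte sum had r = 0.76 (exact permutation p = 0.00694) and rho = 0.90 (exact permutation p = 0.0104), with r = 0.87 without 2 libraries and an adjusted p of 0.139. Within the 10 male libraries they had r = 0.07 (exact permutation p = 0.852) and rho = 0.04 (exact permutation p = 0.918), and r = -0.21 without 2 libraries. With the macrophage sum without Stab1, H2-Aa had r = 0.58 (permutation p = 0.0178, adjusted p = 0.16 over 10 relations) and rho = 0.47 (permutation p = 0.0775), and r = 0.42 without 2 libraries. No relation passed the adjustment.

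The KO effect was refitted with the marker sums as covariates. With the monocyte sum, 0 of the 10 genes were called in females (edgeR; DESeq2 was not run with this covariate), and the log2 fold changes were -0.33 ± 0.33 for Cd74, -0.35 ± 0.30 for H2-Aa, -0.24 ± 0.28 for H2-Ab1, -0.13 ± 0.31 for H2-Eb1 and -0.41 ± 0.18 for H2-DMa. The chain effects were closer to 0 than with group means only and had larger SEs, and the sum overlapped between female KO and female WT only through KO replicate 33 and WT replicate 31. In males H2-Aa remained called at 0.64 ± 0.17 (adjusted p = 0.0221, edgeR). With the macrophage sum without Stab1, the female values were -0.61 ± 0.18 for H2-Aa, -0.69 ± 0.20 for H2-Ab1, -0.68 ± 0.22 for H2-Eb1 and -1.09 ± 0.29 for Cd74 (adjusted p = 0.054 for Cd74, edgeR), and H2-DMa remained called at -0.45 ± 0.11 (adjusted p = 0.049, edgeR). In males H2-Aa came to -0.17 ± 0.34 in that fit and was not called. The macrophage sum without Stab1 did not overlap between male KO and male WT, so in males this sum and the genotype cannot be told apart. In male against female WT, H2-Eb1 was at -0.59 ± 0.50 and H2-Aa at -0.86 ± 0.47 with the monocyte sum in the fit, and 0 of 10 genes passed. The monocyte sum did not overlap between these groups either.

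**Figure D4:**
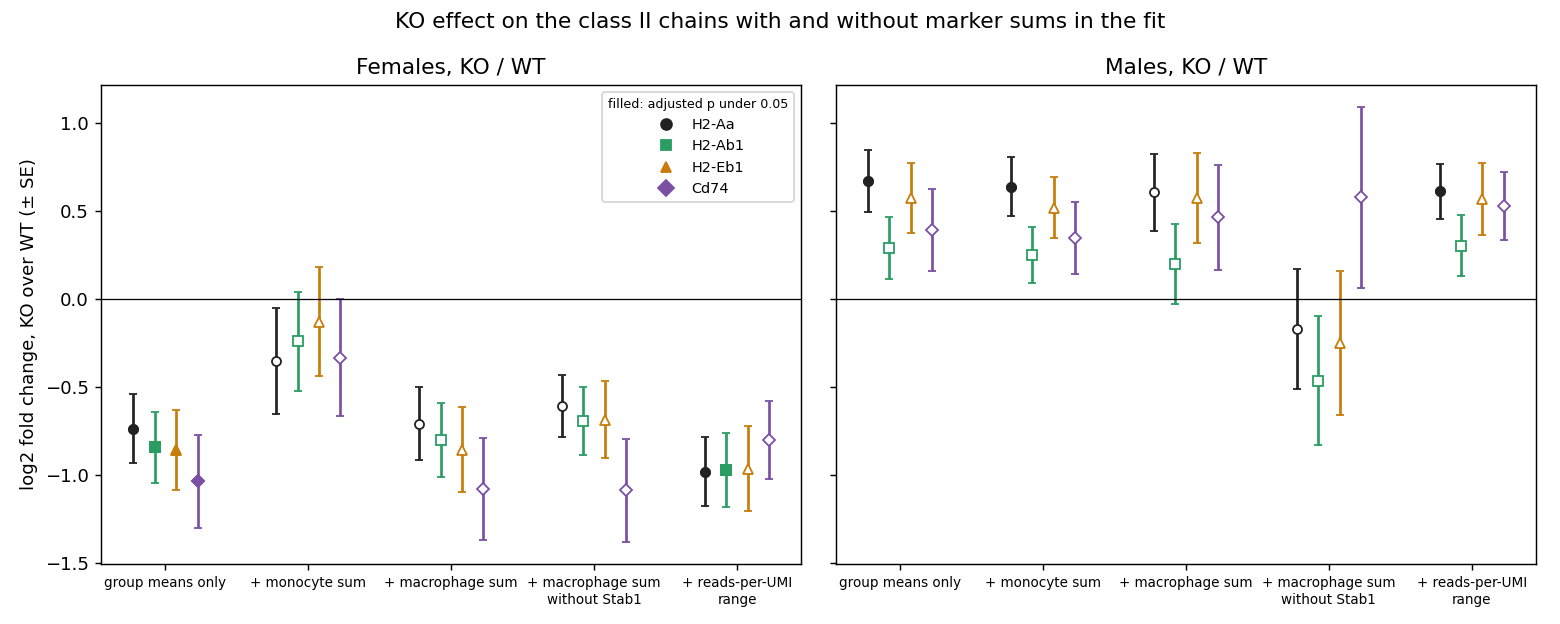
Log2 fold change, KO over WT (± SE), of H2-Aa, H2-Ab1, H2-Eb1 and Cd74 in females (left) and males (right), fitted with group means only or with a marker sum or the range of reads per UMI as covariate; filled points have an adjusted p under 0.05. In females the 4 values lie between -0.35 and -0.13 with the monocyte sum, and in males H2-Aa is at 0.67 with group means only and at -0.17 with the macrophage sum without Stab1.

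The 45 pairs of members were correlated as deviations from group means over 18 libraries. By Pearson r, 6 passed at an adjusted permutation p under 0.05, all among the chain genes and Ciita. By rank the set differed. H2-DMb1 passed with H2-Ab1 (rho = 0.85, adjusted permutation p = 0.0027) and with H2-Eb1 (rho = 0.77, adjusted permutation p = 0.0135). H2-Ab1 and H2-Eb1 had r = 0.89 (permutation p adjusted over the 45 pairs 0.0184) and rho = 0.90 (adjusted permutation p = 0.0027), and r = 0.79 without the 2 farthest libraries. H2-Aa had r = 0.82 with H2-Eb1, 0.79 with H2-Ab1 and 0.72 with Ciita. The pair of H2-Aa and Ciita did not pass by rank (rho = 0.67, adjusted permutation p = 0.0559). Cd74 had r = 0.57 with H2-Eb1 and 0.55 with H2-Ab1. Both passed by Pearson r but not by rank (adjusted permutation p of rho = 0.068 and 0.0559). Cd74 had r = 0.15 with H2-Aa (permutation p = 0.509, and rho = 0.21, permutation p = 0.436) and r = 0.08 with Ciita. Cd74 therefore shared less of its variation with H2-Aa than the beta chain genes did, a difference that was not tested.

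The ratio of Cd74 to H2-Aa counts differed between the ranges of reads per UMI, an observation chosen after the values were seen. In UMI-corrected counts the ratio was 0.683 to 1.00 in the 8 libraries of the low range, 1.22 to 1.58 in the 6 of the middle range and 1.81 to 3.24 in the 4 of the high range, without overlap. In read counts it was 0.393 to 0.636, 0.535 to 0.751 and 0.728 to 1.55, with overlap between neighbouring ranges. The female KO library of the high range, replicate 33, had the highest ratio in both units. Each range of the ratio held libraries of 2 or more groups, and the middle range held all 4. Levels of Cd74 between groups therefore rest on libraries that also differ in reads per UMI, and the part of this in the Cd74 differences was addressed only by the fits with the range as a covariate.

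**Figure D5:**
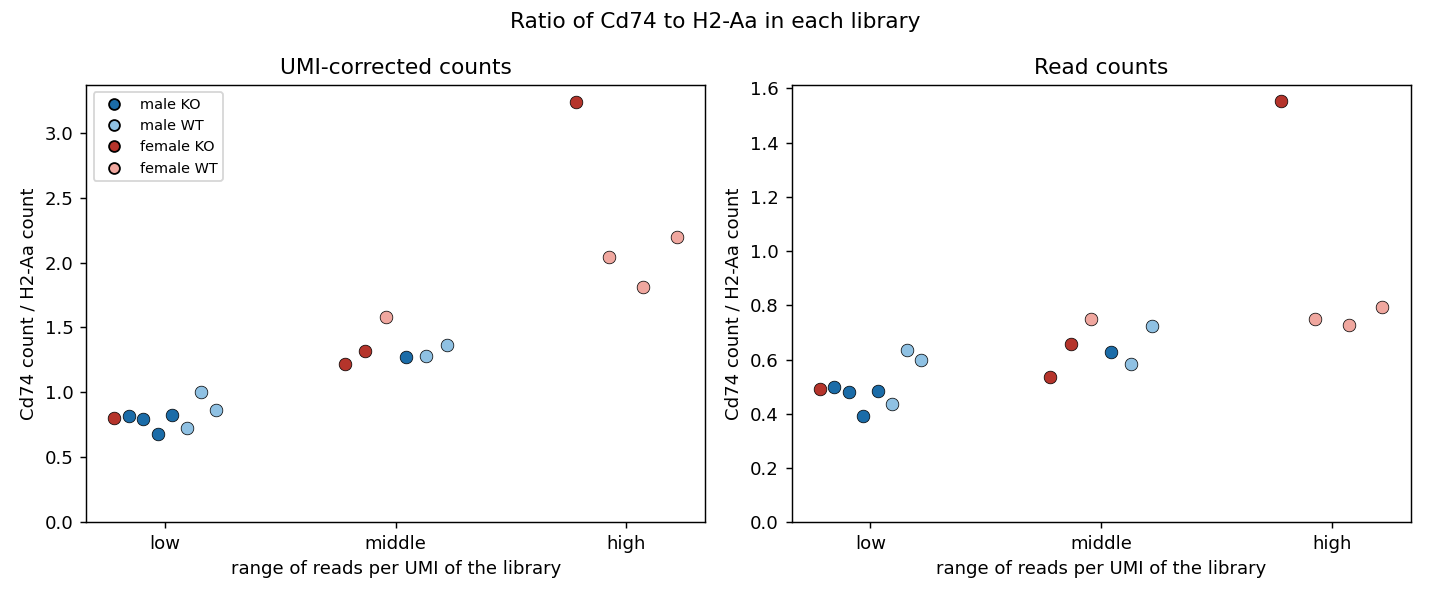
Ratio of the Cd74 count to the H2-Aa count in each library (linear axes from 0), in UMI-corrected counts (left) and in read counts (right), with libraries placed by their range of reads per UMI. In UMI-corrected counts the 3 ranges separate at 0.683 to 1.00, 1.22 to 1.58 and 1.81 to 3.24, with both genotypes in each range.

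Among genes outside the set, the 8 most like the mean pattern of H2-Aa, H2-Ab1, H2-Eb1 and Cd74 over 18 libraries were Cybb, Flna, Fxyd5, Mgl2, Lyz2, Itgb7, Oas3 and Emp3, with r of 0.93 to 0.95 as a description that includes the group differences. Cybb, a subunit of the phagocyte NADPH oxidase, averaged 56.9 CPM in female KO, 122 in female WT, 19.9 in male KO and 12.2 in male WT. Lyz2, a lysozyme of myeloid cells, averaged 884 CPM in female KO, 1998 in female WT, 634 in male KO and 556 in male WT. Mgl2, a C-type lectin gene, averaged 48.0, 68.9, 27.4 and 16.4 CPM in female KO, female WT, male KO and male WT libraries, and was the 1 gene of the 8 that is in the border-associated macrophage list. None of the 8 is in the monocyte list. Both lists hold only a few named genes, so absence from a list does not tell which cells expressed a gene. The 5 genes most like Cd86 were Clk4, Cab39, Plekhf2, Slc12a2 and Eif2a, with r of 0.89 to 0.90, and none of them is in any of the marker lists.

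Of other genes of the pathway, Ifi30 was the 1 called between KO and WT in either sex by edgeR. Ifi30 encodes a lysosomal thiol reductase that unfolds antigens before they are loaded on class II. It averaged 399 ± 44.8 CPM in female KO and 615 ± 86.9 CPM in female WT (SD, n = 4 each), with a log2 fold change of -0.63 ± 0.12 (adjusted p = 0.00937, edgeR). In males it averaged 357 ± 26.9 CPM in KO and 488 ± 39.7 CPM in WT (SD, n = 5 each), with a log2 fold change of -0.45 ± 0.11 (adjusted p = 0.0104, edgeR). The ranges of KO and WT did not overlap in either sex. Of 8 tested genes of class II assembly and loading, 1 fell and 0 rose in each sex, with a median log2 fold change of -0.15 in females and -0.13 in males. Of 16 tested regulators of class II transcription, among them Rfx5, Irf1 and Nfya, 0 rose and 0 fell in either sex (edgeR), with medians of 0.08 in females and -0.01 in males; 0 in females and 2 in males had an unadjusted p under 0.05, and DESeq2 called 0 in either sex. Of 14 tested costimulatory ligands and adaptors, 0 rose and 0 fell in either sex (edgeR), with medians of 0.05 in females and -0.04 in males. Of these, 1 in females and 4 in males had an unadjusted p under 0.05, and DESeq2 called 0 in females and 1 in males. Between the sexes in WT, 1 of the 16 regulators was higher in males and 2 were lower. That is near the share over all genes, of which 17.3% were called and 10.3% were lower. Nfya was 1 of the 2 lower in males (-0.66 ± 0.18, adjusted p = 0.0142, edgeR), and Irf8 was the 1 higher (0.42 ± 0.12, adjusted p = 0.0235, edgeR). Both were named after their values were seen, and their part in the class II difference was not tested. Of the 14 costimulatory ligands and adaptors, 1 was lower in male WT, Icosl, and 2 were higher, Vsir and Nfkb1. These were also named after their values were seen, and their number is likewise near the 17.3% of all genes called.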

How the data were processed

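Gene counts came as 2 deposited tables, 1 of UMI-corrected counts and 1 of read counts, both unscaled. Per the labels' protocols the libraries were bulk MARS-seq of polyadenylated 3' ends, and the submitters' processing notes name cutadapt, STAR, HTSeq and the build mm10. No other setting is stated there. Each table held 34 library columns, and 16 of them were not used. Symbols and coordinates came from GENCODE for GRCm38 (52081 of 55414 identifiers).

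UMI-corrected counts were filtered with filterByExpr (10948 genes), scaled by TMM and fitted with 1 mean per group over 18 libraries by edgeR 4.0.16 (R 4.3.3, common biological coefficient of variation 17.8%), with Benjamini-Hochberg adjustment over all genes. Marker sums are CPM of the library total. A slope adds the log2 sum as a covariate. Correlations used two-sided permutations within groups, 100000 over 18 libraries and all possible ones (exact) in the libraries of a sex. KO and WT libraries were not exchanged with each other. DESeq2 1.42.0 was an alternative. The fit was tested on simulated data. No interval was computed from counts alone, and depth limits the genes with few UMIs.

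The members and lists were chosen with earlier results of these data known. The 10 members are named throughout. Of the pathway lists, genes called between genotypes by edgeR are named. The 8 and 5 genes of like pattern are those with the highest Pearson r. Of the marker lists, some genes of high mean CPM and some strict markers (Ccr2, Cbr2 and Mrc1) are named, and the other strict markers are not.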

Additional observations from a re-analysis of the deposited data

Results flagged for a closer look

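Among 40 groups of 4 or 5 libraries checked, 2 held a library far from the others, and chance alone marks about 1 in 20 groups. Ciita was at 30.8 CPM in female KO replicate 16, above the other female KO libraries at 20.3 to 21.6 CPM. Cd86 was at 140 CPM in female WT replicate 39, above the other female WT libraries at 78.2 to 86.5 CPM. Neither gene was called between KO and WT in females.

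The KO effect differed between the sexes, by the test of the difference itself, for H2-Aa (female minus male log2 fold change -1.41) and H2-Eb1 (-1.43). For H2-Aa each KO library lay below every WT library in females, and each KO library lay above at least 4 of the 5 WT libraries in males.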

How the results depend on the processing

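No paired analysis was possible because the groups share no replicate number. The numbers of members called between KO and WT were 5 in females, 1 in males and 1 averaged, and 2 for the difference between sexes, 5 for male against female WT and 2 for male against female KO. In females the count was 1 with read counts, 0 in females alone, 3 with the range of reads per UMI, 2 with total UMIs, 0 with the monocyte sum, 1 with the macrophage sum and 0 with both. In males it was 2 without a filter, 2 in males alone, 3 in the lowest range of reads per UMI and 0 with the macrophage sum. For the difference it was 1 with RLE, 4 without a filter, 1 at 10 CPM, 1 with read counts, 4 with DESeq2, and 0 with the monocyte sum, the macrophage sum or both. Averaged over sexes it was 0 with the monocyte sum or both sums. For male against female WT it was 0 with the monocyte sum, 2 with the macrophage sum and 0 with both. For male against female KO it was 4 without a filter, 1 each with read counts, KO libraries alone, the range covariate and total UMIs, and 0 in the lowest range and with the monocyte sum, the macrophage sum or both.

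Without male KO replicates 6, 9 and 17 the counts were 3 in females and 0 in males, averaged, for the difference and for male against female KO. Settings added to the slopes after seeing the data included the range of reads per UMI as a covariate, with 0 members called on either sum. On the monocyte sum 117 of 10948 genes were called in that fit, against 55 without the range. Settings added to the contrasts after seeing the data were the macrophage sum without Stab1, its use with the monocyte sum, and leaving out the 2 shallowest libraries. The first gave 1 in females and 0 in males, averaged, for the difference and for male against female WT. The second gave 0 for these 5 and 1 for male against female KO. Without female KO replicate 33 and female WT replicate 34 the counts were 2 averaged, 1 for the difference and 1 for male against female KO. Leaving out 1 library gave 0 to 5 in females, 0 to 2 in males, 1 to 2 averaged, 0 to 4 for the difference, 5 to 6 for male against female WT, 1 to 3 for male against female KO and 0 to 0 for either slope. Among values called with group means alone, signs turned for H2-Eb1 in females with both sums (0.078), for H2-Aa in males with the macrophage sum without Stab1 (-0.17) and with it and the monocyte sum (-0.086), and for Ciita in male against female WT with those 2 sums (0.40). Values not called with group means alone also changed sign, among them H2-Ab1 (-0.46) and H2-Eb1 (-0.25) in males with the macrophage sum without Stab1, Ciita in females with the monocyte sum (0.23) and H2-Eb1 in male against female KO with both sums (0.075). The cause was not tested. The female contrast in the lowest range could not be fitted, since no female WT library is in it.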

Other observations

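The ratio of Cd74 to H2-Ab1 also separated by the range of reads per UMI, at 1.25 to 1.89 in the low, 1.90 to 2.22 in the middle and 2.85 to 3.92 in the high range, in UMI-corrected counts. In read counts it was 0.923 to 1.53, 1.02 to 1.56 and 1.30 to 2.48, with overlap. The 3 ratios computed without Cd74 overlapped between neighbouring ranges: H2-Aa to H2-Ab1 was 1.55 to 2.28, 1.30 to 1.69 and 1.21 to 1.76 in UMI-corrected counts. H2-Eb1 to H2-Ab1 was 0.855 to 1.36 in the low range, 0.892 to 1.32 in the middle range and 1.11 to 1.27 in the high range, in UMI-corrected counts. H2-DMa to H2-DMb1 was 1.65 to 2.14, 1.54 to 2.07 and 1.43 to 2.86 in the same ranges. The median reads per UMI of Cd74 were 1.35, 1.89 and 3.85 in the low, middle and high range, against 2.21, 3.94 and 9.89 for H2-Aa. Cd86 was like Cd74 in this, at 1.52, 2.34 and 3.86 reads per UMI. The mean UMI-corrected count of Cd74 thus came from fewer reads per UMI than that of H2-Aa in every range. These values were chosen after seeing the data.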
